A study of Mus musculus with 17 samples.

Results

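Tumors that grew in livers lacking the Nogo-B receptor (NgBR) were compared with non-tumor liver of the same genotype, both from mice fed a Western diet (WD). All libraries labelled as tumor under WD (n = 3) and as liver of liver-specific NgBR knockout mice (N-LKO) under WD (n = 3) were taken, which are 6 of the 17 samples of the series, and the comparison was not chosen by measured values, while some of the genes named below were, as is said there. All 6 came from male mice on a C57BL6 background that carry a loxP-flanked NgBR (Nus1) allele and Cre driven by the albumin promoter, which is active in hepatocytes, so that other liver cells keep the gene. WD, a diet rich in fat and cholesterol, was given for 16 weeks. Livers of WT mice under WD (n = 3) entered the same fit and are named only where they place a value. The labels give neither the age of the mice, nor whether a tumor and a liver with the same number came from 1 animal, nor whether nodules or animals were pooled, so the spread between libraries may be partly technical. The question was what sets the tumors apart from non-tumor liver of the same genotype and diet, and how far the tumors differ from each other.

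NgBR and Dhdds form the cis-prenyltransferase that makes dolichol, the lipid on which glycans for protein glycosylation are assembled. Hepatocytes of the normal liver differ along the path of the blood: cells next to the portal vein carry out gluconeogenesis and urea synthesis, while cells around the central vein, under Wnt signals from the central vein endothelium, make glutamine and hold most of the drug-metabolizing cytochrome P450. The Wnt signal acts through beta-catenin and TCF factors, and Axin2, Lgr5, Sp5, Rnf43 and Nkd1 are among its direct readouts. Liver tumors are known for turning on fetal liver genes, such as Afp and H19, and genes of other epithelia. They can also hold fewer or different endothelial cells and macrophages than the liver around them.

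The 6 libraries held 18331413 to 20200618 counts and 23109 to 23454 detected genes. Tumor 1 lay nearer to the N-LKO livers than to the other tumors. Its root mean square difference in log2 CPM (counts scaled to library size), taken over all genes tested, was 0.536 to 0.654 to the N-LKO livers but 0.825 to tumor 2 and 0.739 to tumor 3. Tumors 2 and 3 differed from the N-LKO livers by 0.794 to 0.971 and from each other by 0.734, and the N-LKO livers differed among themselves by 0.422 to 0.518. The biological coefficient of variation was 0.331 among tumors and 0.152 among N-LKO livers. Hepatocyte markers (10 genes, with Alb among them) summed to 79396, 58444 and 98298 CPM in tumors 1, 2 and 3 and to 67510 to 78152 CPM in N-LKO livers, so the tumors carried the defining transcripts of hepatocytes. Mitochondrial transcripts took 6.45%, 7.89% and 6.96% of the counts in the tumors and 4.97% to 6.15% in the livers. Because tumor 1 lay closer to liver than to the other tumors, the counts of called genes below are also given without it. This choice was made on the measured values and leaves only tumors 2 and 3. Leaving out the tumor nearest to liver widens the difference by itself. Counts and adjusted p values without tumor 1 therefore describe tumors 2 and 3 and are not independent evidence.

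**Figure D1:**
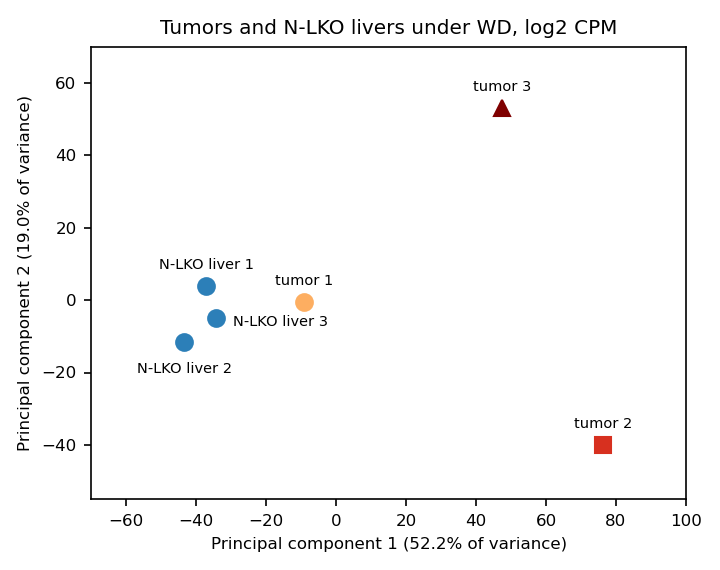
Each point is 1 library on the first (52.2% of variance) and second (19%) principal component of log2 CPM over all genes tested. The N-LKO livers lie together at -34.3 to -43.3 on the first component, tumor 1 lies near them at -9.04, and tumors 2 and 3 lie far from the livers and from each other.

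The targeted transcript was already reduced in N-LKO liver. Nus1 (chr10:52417547-52440183 in GRCm38, plus strand) stood at 44.0, 34.5 and 29 CPM in tumors 1, 2 and 3 and at 51.1, 47.3 and 41.7 CPM in N-LKO livers 1, 2 and 3, beside 94.5 ± 5.57 CPM in WT livers (mean ± SD, n = 3). Tumor 1 lay within the range of the N-LKO livers and the other tumors below it. The difference between tumor and N-LKO liver did not pass the test (log2 fold change -0.38 ± 0.16 SE, adjusted p = 0.245), and without tumor 1 it did (-0.56, adjusted p = 0.0351). Its partner Dhdds gave 23.9, 17.3 and 13.1 CPM in tumors against 20.1 to 25.5 CPM in livers of the same genotype (adjusted p = 0.381). Of 35 genes of dolichol synthesis and N-glycan assembly tested, 0 passed the edgeR test (without tumor 1, 2 higher and 1 lower, against 6.40% and 5.59% of all genes). In 6, every tumor was below every N-LKO liver, as in 11.6% of all genes, among them the dolichol kinase Dolk with 6.84, 7.43 and 8.39 CPM against 10.5 to 11.9 CPM. At an unadjusted p under 0.05, the number of these genes was 6 of 35, and 18.3% of all genes were so, a share near that of the list. In 14 of the 35, both tumors 2 and 3 lay below every N-LKO liver, and in 2 above (22.8% of all genes in each direction).

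Of 17829 genes tested, 89 differed between tumor and N-LKO liver at an adjusted p under 0.05 (0.499%), with 78 higher (0.437% of genes tested) and 11 lower (0.0617%) in tumors. At an unadjusted p under 0.05, 3256 genes differed, and the median log2 fold change over all genes was 0.015. All 89 called genes lay outside the range of the other group, as did 11.5% (higher) and 11.6% (lower) of all genes. Without tumor 1, 1170 genes were higher (6.40%) and 1023 lower (5.59%) of 18285 tested, and these held all 89. In 54 of the 78 rises tumor 1 was the lowest tumor, and in 10 of the 11 falls it was the highest. The called genes also depended on the N-LKO livers: without liver 1, 2 or 3 the test called 5, 3 and 6 genes. Of the 89, only Slc51b and Dnah1 passed in each of the 9 fits that leave out 1 library and in all 17 alternative fits.

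The largest rises were in transcripts that adult liver holds at low levels. H19, an imprinted long noncoding RNA of the fetal liver (chr7:142575529-142578143, minus strand), stood at 687, 11041 and 489 CPM in tumors 1, 2 and 3 and at 4.6, 1.33 and 3.08 CPM in N-LKO livers. Every tumor was far above every liver, tumor 2 the most (log2 fold change 10.40 ± 1.47, adjusted p = 0.0258). Tff3, a trefoil peptide of mucus-secreting epithelium, stood at 27.3, 156 and 215 CPM in tumors against 1.22, 0.285 and 0.319 CPM in livers (7.75 ± 0.95, adjusted p = 0.0151). Timp4, an inhibitor of matrix metalloproteases, had 1.51, 53.5 and 78.0 CPM in tumors, while every N-LKO liver was at or under 3 counts. By the floor of 3 counts per library, the mean of the tumors was at least 278-fold higher. This bound does not hold for tumor 1 alone. Tumor 1 was far below the other tumors for Timp4, and this also held for Sorcs2, a sortilin-type receptor (1.76, 52.0 and 23.1 CPM against 0.0979 to 0.475 CPM), and for Cav1, the coat protein of caveolae (10.4, 134 and 168 CPM against 1.70 to 4.36 CPM). For these 3 genes the call was made in 1 of the 9 fits that leave out a library, the one without tumor 1.

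Several rises were transporters and enzymes. Slc1a1, a glutamate transporter of kidney and gut, had 4.63, 31.0 and 11.5 CPM in tumors against 0.106 to 0.147 CPM in livers. All livers were at or under 3 counts. The mean of the tumors was at least 98.5-fold higher, a bound that does not hold for each tumor alone. Slc34a2, a phosphate transporter, had 6.13, 74.7 and 38.9 CPM against 1.03 to 2.23 CPM. Gpx2, a glutathione peroxidase known from gut epithelium and as an NRF2 target, had 5.88, 31.4 and 5.89 CPM against 0.0532 to 0.196 CPM, with tumors 1 and 3 alike and tumor 2 higher. Ptges, which makes prostaglandin E, had 5.93, 20.5 and 12.7 CPM against 0.570 to 0.881 CPM. The surface protein gene Ly6c1, which has a near-identical neighbour so that its estimated counts are uncertain, had 3.42, 13.3 and 13.3 CPM against 0.0964 to 0.503 CPM. Slc51b, a subunit of the bile acid exporter of the basolateral membrane (chr9:65412714-65422955, minus strand), had 5.78, 4.09 and 5.79 CPM in tumors and 0.245, 0.427 and 0.425 CPM in livers. The tumors were close to each other for Slc51b and all far above the livers (3.81 ± 0.34, adjusted p = 0.00482), and its highest adjusted p over the alternatives was 0.0466.

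Other rises differed less among the tumors than those of Timp4, Sorcs2 and Cav1, though tumor 1 was the lowest tumor for Rasl10b and Igdcc4. Dnah1, a dynein heavy chain of cilia (chr14:31260375-31323896, minus strand), had 13.6, 8.58 and 11.5 CPM in tumors and 0.930, 0.475 and 1.17 CPM in livers (3.71 ± 0.34, adjusted p = 0.00482). Rasl10b, a RAS-like GTPase, had 8.50, 12.2 and 20.2 CPM against 0.759 to 1.22 CPM, and Igdcc4, a membrane protein of the immunoglobulin superfamily, had 17.8, 37.2 and 44.5 CPM against 0.617 to 2.25 CPM. Both passed in 8 of the 9 fits that leave out 1 library and failed in the remaining one, without liver 2 (Rasl10b, adjusted p = 0.0548) or liver 3 (Igdcc4, 0.0651). The 5 called rises with the smallest spread among tumors were Atp2b2, Glipr2, Slc30a10, Fabp5 and Ace. Atp2b2, a calcium pump, had 20.7, 17.4 and 25.4 CPM against 2.99, 1.76 and 0.372 CPM (3.62 ± 0.49, adjusted p = 0.0181). Slc30a10, a manganese exporter of hepatocytes, had 45.6, 56.4 and 51.5 CPM against 21.9, 26.9 and 24.2 CPM (1.07 ± 0.16, adjusted p = 0.0292). Ace, the angiotensin-converting enzyme, had 8.30, 8.27 and 11.8 CPM against 2.87 to 3.66 CPM, and Glipr2 had 13.7, 13.1 and 15.2 CPM against 2.30 to 4.03 CPM. For these genes no tumor was near the range of the livers.

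The 11 falls were smaller in size. Tlr12, a Toll-like receptor, had 11.9, 9.65 and 10.2 CPM in tumors and 23.4, 58.5 and 31.9 CPM in N-LKO livers (-1.84 ± 0.31, adjusted p = 0.0385). The tumors were close to each other, and the spread was among the livers. Clstn3, a calsyntenin, had 16.0, 8.32 and 6.67 CPM against 26.3, 47.7 and 36.2 CPM. Dsp, the desmosome protein desmoplakin, had 124, 77.5 and 93.5 CPM against 173, 243 and 219 CPM (-1.1 ± 0.19, adjusted p = 0.0448). Jund, an AP-1 transcription factor, had 24.3, 23.1 and 26.9 CPM against 37.3, 66.1 and 50.6 CPM. Ntn1 (netrin), Cdc42bpg (a kinase) and Vipr1 (the receptor of vasoactive intestinal peptide) fell by 1.04, 0.97 and 0.77 on the log2 scale, with adjusted p of 0.0308, 0.0292 and 0.0321. The falls of lower abundance were Cntfr, Zfp423, the Wnt feedback inhibitor Nkd1 and 1 gene with an automatic name. The upper-quartile scaling left 6 falls, and no fall was called by limma-voom, in the fit of the 6 libraries alone or without any 1 N-LKO liver.

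**Figure D2:**
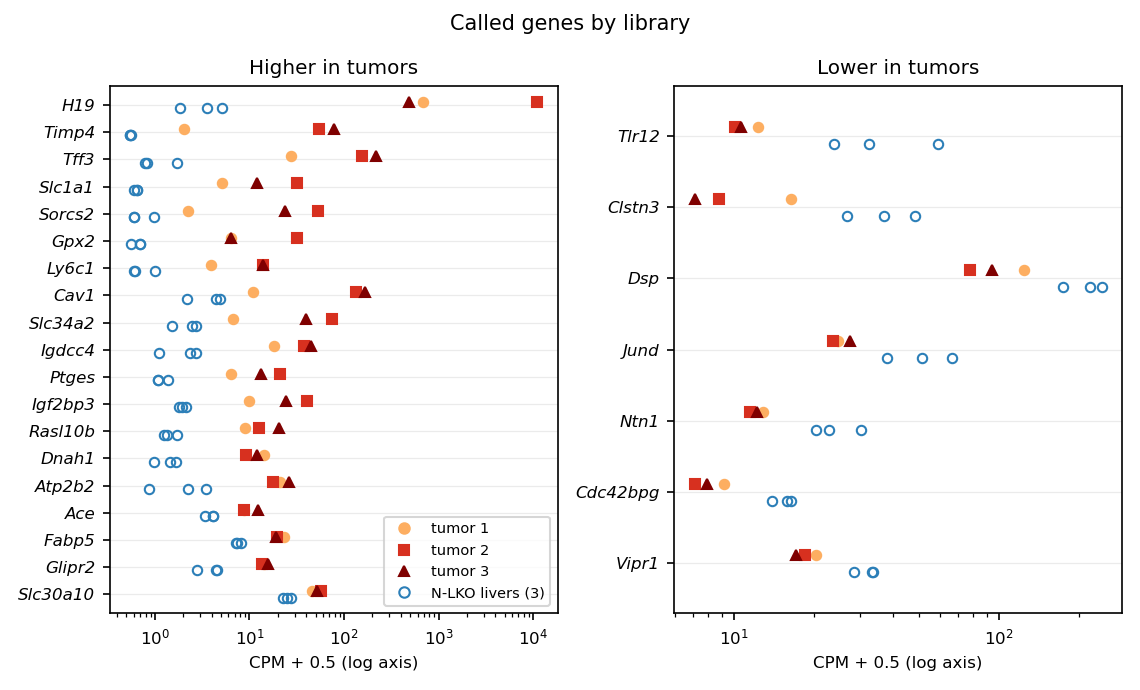
CPM + 0.5 on a log axis for the called genes named by rule, with 1 filled symbol per tumor and open circles for the 3 N-LKO livers. The left panel holds the rises and the right panel the falls, and in both no tumor lies within the range of the livers. Tumor 1 is the tumor nearest to the livers for Timp4, Sorcs2 and Cav1, and the tumors lie together for Dnah1, Glipr2 and Vipr1.

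Most pericentral and Wnt target genes were far below liver in tumors 2 and 3 and less so in tumor 1. Their summed level was 7046, 1217 and 1405 CPM in tumors 1, 2 and 3 and 11063 to 11772 CPM in N-LKO livers. Of 24 genes on this list, 1 was called, Nkd1, which fell by 1.46 on the log2 scale (adjusted p = 0.0308). However, 18 were lower in every tumor than in every N-LKO liver (11.6% of all genes), 0 were higher in every tumor, and the median log2 fold change was -1.60. Without tumor 1, 20 of 24 were called lower (5.59% of all genes) and 0 higher, with a median of -2.68. In 21 of the 24, both tumors 2 and 3 lay below every N-LKO liver, and in 0 above (22.8% of all genes in each direction), and in 18 tumor 1 lay between the livers and the other tumors.

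Among the enzymes and transporters of the pericentral zone, Glul, the glutamine synthetase of the innermost cells, had 1032, 242 and 270 CPM in tumors 1, 2 and 3 and 1685, 1442 and 1477 CPM in N-LKO livers. Tumors 2 and 3 held about the same low level and tumor 1 an intermediate one (-1.58 ± 0.47, adjusted p = 0.133; without tumor 1, -2.59, adjusted p = 2.03e-04). Cyp2e1, a main cytochrome P450 of this zone, had 3254, 130 and 229 CPM against 5326 to 5510 CPM. Cyp1a2 had 82.0, 4.27 and 7.46 CPM against 73.3 to 123 CPM, so that tumor 1 was inside the range of the livers. Oat, the ornithine aminotransferase, had 586, 38.4 and 33.0 CPM against 884 to 926 CPM. Slc1a2, the glutamate transporter of pericentral hepatocytes, had 204, 3.38 and 4.95 CPM against 350 to 419 CPM, and no other member was as low relative to liver in tumors 2 and 3. Lect2, a secreted protein and beta-catenin target, had 46.1, 2.22 and 3.60 CPM against 53.2 to 66.5 CPM.

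Direct readouts of the Wnt pathway were also lowest in tumors 2 and 3. Axin2, the feedback scaffold of the pathway, had 7.69, 0.890 and 1.09 CPM against 10.3, 22.5 and 16.2 CPM in livers (-2.35 ± 0.67, adjusted p = 0.123). Lgr5, the R-spondin receptor, had 5.63, 0.133 and 0.678 CPM against 7.44 to 10.3 CPM. The transcription factor Sp5 had 0.754, 0.0890 and 0.0521 CPM against 1.42 to 2.14 CPM (adjusted p = 0.0954), and Tbx3 had 19.8, 3.91 and 8.45 CPM against 32.5 to 57.0 CPM (adjusted p = 0.0966). The ubiquitin ligase Rnf43 had 22.9, 3.65 and 9.65 CPM against 29.1 to 34.6 CPM. Without tumor 1 all 5 were called lower (adjusted p 7.89e-04 for Axin2, 0.00134 for Lgr5, 0.00142 for Sp5, 0.00521 for Tbx3 and 0.00448 for Rnf43). Not all members were low: Notum, a secreted Wnt deacylase, had 7.74, 3.12 and 12.8 CPM against 8.52 to 10.7 CPM, and the ammonium transporter Rhbg had 6.13, 4.36 and 0.619 CPM against 3.54 to 7.0 CPM. Both overlapped with the livers. The Wnt ligand Wnt2 and the R-spondin Rspo3, which endothelial cells make, are given with the endothelial genes.

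The promoters of members were searched for the core letters of the TCF motif, CTTTGAT, or ATCAAAG on the other strand. Promoters run from 250 bases before to 50 bases after the start (RefSeq, GRCm38.p6), and 15 of the 24 members were found in the promoter table. These 15 have 17 promoters in the table, of which 3 held the letters (17.6%), as did 1225 of all 32851 promoters (3.73%). They are shown with the match in capitals. All 3 belong to genes that were low in tumors 2 and 3, but so were 21 of the 24 members, so this does not set them apart. The list was itself made of pericentral and Wnt target genes, and the share rests on 3 promoters and was not tested. The first base of the match lay 32 bases before the start for Lect2 (chr13:56548489-56548788, minus strand) and 207 before for Slc1a2 (chr2:102706188-102706487, plus strand), and for Sp5 (chr2:70474673-70474972, plus strand) it lay between these distances. A match is a description of the letters, and binding was not measured.
Sp5 promoter: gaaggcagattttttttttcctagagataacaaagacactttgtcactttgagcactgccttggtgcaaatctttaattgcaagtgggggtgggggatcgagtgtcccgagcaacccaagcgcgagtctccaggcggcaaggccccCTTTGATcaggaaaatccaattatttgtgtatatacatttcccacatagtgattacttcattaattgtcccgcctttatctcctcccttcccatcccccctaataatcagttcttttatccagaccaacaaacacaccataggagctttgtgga
Slc1a2 promoter: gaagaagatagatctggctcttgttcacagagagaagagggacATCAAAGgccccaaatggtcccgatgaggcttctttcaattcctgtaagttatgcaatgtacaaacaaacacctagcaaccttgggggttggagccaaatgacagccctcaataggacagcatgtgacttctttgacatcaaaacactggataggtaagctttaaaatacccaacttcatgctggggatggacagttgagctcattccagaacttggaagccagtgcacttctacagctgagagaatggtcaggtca
Lect2 promoter: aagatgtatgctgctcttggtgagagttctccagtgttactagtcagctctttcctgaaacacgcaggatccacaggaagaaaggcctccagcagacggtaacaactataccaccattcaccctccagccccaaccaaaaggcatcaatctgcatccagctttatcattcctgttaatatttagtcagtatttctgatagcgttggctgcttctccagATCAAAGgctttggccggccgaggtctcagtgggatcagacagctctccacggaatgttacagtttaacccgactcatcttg

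**Figure D3:**
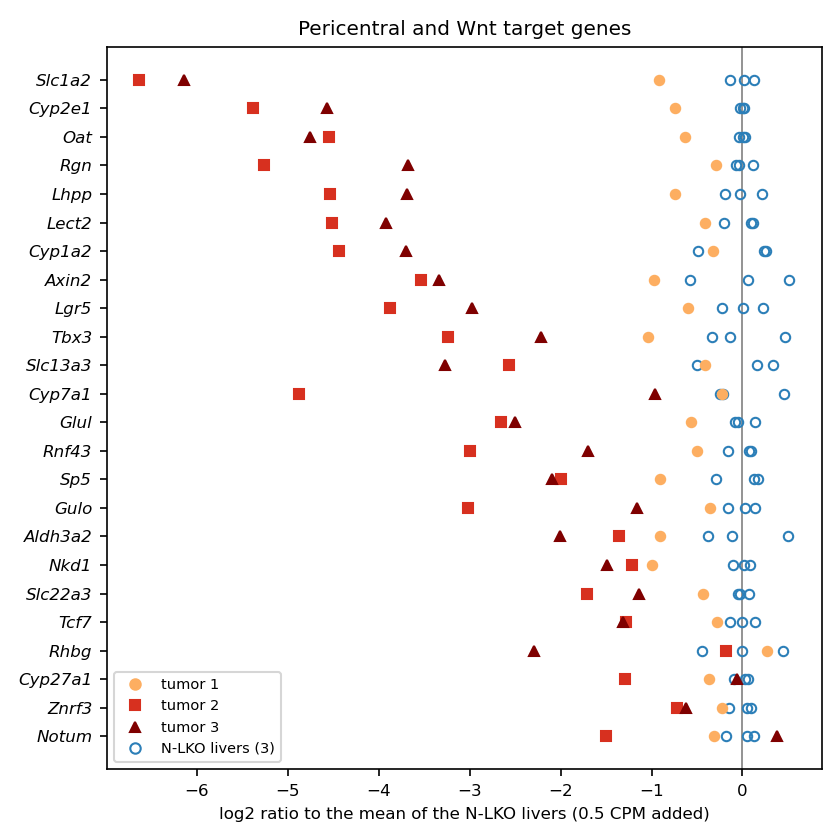
Log2 ratio of each library to the mean of the N-LKO livers (0.5 CPM added) for the 24 pericentral and Wnt target genes, with filled symbols for tumors and open circles for N-LKO livers. Tumors 2 and 3 lie left of the livers for 21 of the 24 genes, and tumor 1 lies between them and the livers for 18.

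Periportal genes were not low. Of 20 tested, 0 were called by edgeR, 15 had a positive log2 fold change, and 3 were higher and 1 lower in every tumor than in every N-LKO liver (11.5% and 11.6% of all genes). The median log2 fold change was 0.65. Without tumor 1, 5 were called higher (6.40% of all genes) and 0 lower, with a median of 0.86. These were Cyp2f2, a periportal cytochrome P450 (265, 922 and 898 CPM against 212 to 402 CPM), the lipid droplet protein Hsd17b13 (445, 841 and 820 CPM against 288 to 451 CPM), Aldh1b1 (70.9, 268 and 279 CPM against 17.7 to 54.5 CPM), the steroid enzyme Hsd17b6 and E-cadherin (Cdh1; 60.8, 85.0 and 68.1 CPM against 20.2 to 36.4 CPM). Urea cycle and gluconeogenic members overlapped with liver or lay below it: Cps1 had 2111, 1452 and 3113 CPM against 1881 to 2530 CPM, Arg1 had 515, 360 and 704 CPM against 384 to 588 CPM, and Pck1, which is needed for gluconeogenesis, had 1046, 424 and 1038 CPM against 1570 to 1637 CPM (adjusted p = 0.301). Of 33 genes of the urea cycle and amino acid breakdown, 0 were called either with or without tumor 1.

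Genes of the fetal liver and of liver cancer held the most called members of the 44 lists used. Of 28 tested, 5 were called higher (0.437% of all genes) and 0 lower, 16 were higher in every tumor (11.5%), 1 was lower in every tumor, and the median log2 fold change was 1.35. Without tumor 1, 12 were called higher and 1 lower (6.40% and 5.59% of all genes). Afp, the fetal counterpart of albumin (chr5:90490737-90508907, plus strand), had 15.8, 15 and 10.1 CPM in tumors and 2.20, 1.14 and 2.93 CPM in livers (2.71 ± 0.33, adjusted p = 0.0151), with tumor 1 as high as the others. Igf2bp3, a fetal RNA-binding protein, had 9.49, 40.3 and 24.1 CPM against 1.30 to 1.62 CPM, and Sox9, a transcription factor of bile ducts and progenitor cells, had 22.1, 62.2 and 33.6 CPM against 9.49 to 11.6 CPM (1.90 ± 0.31, adjusted p = 0.0355). Fabp5, a fatty acid binding protein, had 22.6, 18.9 and 18.4 CPM against 6.69, 6.96 and 7.65 CPM (1.49 ± 0.19, adjusted p = 0.0151). The counts of Fabp5 and Igf2bp3 were fractional in all 9 libraries of the diet, so part of their reads is shared with other loci. Members past no threshold with all tumors included differed by tumor: the oncofetal proteoglycan Gpc3 had 30.7, 2.36 and 0.834 CPM against 0.881 to 1.49 CPM, highest in tumor 1, and Epcam had 3.37, 0.0890 and 0.104 CPM against 1.96 to 3.19 CPM, near 0 in tumors 2 and 3.

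Imprinted genes differed from tumor to tumor. Of 16 tested, H19 and Peg10 were called higher (0.437% of all genes) and 0 were called lower, and 6 were higher and 2 lower in every tumor (11.5% and 11.6% of all genes). Without tumor 1, 6 were called higher and 1 lower (6.40% and 5.59%). Peg10, a placental gene of retroviral origin, had 8.14, 20.1 and 19 CPM against 4.36 to 4.79 CPM (1.78 ± 0.30, adjusted p = 0.0375). Igf2, the fetal growth factor next to H19, had 1.81, 334 and 0.261 CPM in tumors 1, 2 and 3 against 0.294 to 1.19 CPM, so it was far above the livers in tumor 2 only, while H19 was so in all 3. Meg3 and Rian, noncoding RNAs of the other large imprinted cluster, were highest in tumor 1, with 11.9, 1.45 and 0.678 CPM (Meg3) and 14.6, 2.85 and 0.678 CPM (Rian), against at most 0.475 CPM in a liver. Igf2, Meg3 and Rian did not pass the test with all tumors (adjusted p of 0.125, 0.105 and 0.0792). Of 12 gut-type epithelial genes tested, Tff3 and Sox9 were called higher (0.437% of all genes), and 6 were higher and 1 lower in every tumor (11.5% and 11.6%). Both called genes are already counted among the called liver cancer genes, and Sox9 is also a cholangiocyte marker, so they are not a separate finding. Without tumor 1, 5 of the gut-type genes were called higher and 1 lower (6.40% and 5.59%). The mucin Muc13 (0.804, 4.94 and 1.36 CPM against 0.0949 to 0.213 CPM) and the keratin Krt20 (11, 0.667 and 2.03 CPM against 0 to 0.245 CPM) were highest in different tumors.

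Of 40 cell cycle genes, 0 were called by edgeR, while 17 had an unadjusted p under 0.05 (18.3% of all genes), 36 had a positive log2 fold change and 18 were higher in every tumor than in every N-LKO liver (11.5% of all genes). The median log2 fold change was 0.87, and without tumor 1 9 were called higher and 0 lower (6.40% and 5.59% of all genes). Ccne1, the cyclin of the entry into S phase, had 1.96, 10.9 and 4.17 CPM against 0.160 to 0.665 CPM (3.57 ± 0.67, adjusted p = 0.0523). Cdk1, the mitotic kinase, had 4.93, 9.21 and 3.96 CPM against 1.28 to 1.86 CPM, and Rrm2, which makes deoxynucleotides, had 20.8, 7.21 and 17.6 CPM against 2.18 to 5.63 CPM (adjusted p = 0.0775 for both). The proliferation marker Mki67 had 36.1, 53.9 and 22.1 CPM against 14.4 to 25.9 CPM and overlapped with the livers. All these are bulk levels, in which fewer cells of a type and less RNA per cell cannot be told apart.

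Markers of other liver cells differed as well, and their part in the results above was not tested. Of 12 Kupffer cell markers, 0 were called, and 5 were lower and 1 higher in every tumor (11.6% and 11.5% of all genes). The median log2 fold change was -1.05, and without tumor 1, 7 were called lower (5.59% of all genes). The summed level of the list was 765, 640 and 445 CPM in tumors 1, 2 and 3 and 675 to 793 CPM in N-LKO livers. Of the defining resident genes, Timd4 and Marco were near 0 in tumors 2 and 3: Timd4 had 1.61, 0.222 and 0.0521 CPM against 1.71 to 4.04 CPM, Marco had 1.06, 0.0445 and 0.0521 CPM against 1.80 to 3.51 CPM. Clec4f was lower in these tumors without being near 0, with 70.5, 16.5 and 8.19 CPM against 67.1 to 90.0 CPM. Markers of recruited and lipid-associated macrophages summed to 1024, 740 and 1014 CPM against 539 to 624 CPM, and of these 15 genes Fabp5 was called higher (0.437% of all genes; without tumor 1, 2 were, against 6.40%). Among 16 stellate cell and fibroblast markers, 0 were called, 6 were lower and 1 higher in every tumor (11.6% and 11.5% of all genes), and without tumor 1 3 were called lower (5.59%) and 0 higher. Their sums were 1245, 846 and 746 CPM against 1079 to 1277 CPM. Cholangiocyte markers summed to 693, 446 and 860 CPM against 403 to 464 CPM, but the duct keratins Krt19 (1.21, 0.178 and 0.0521 CPM against 0.538 to 1.06 CPM) and Krt7 were not higher in tumors 2 and 3. The cholangiocyte list and that of recruited macrophages share Spp1. The paper reports Spp1 and Epcam, with other genes, as high in a tumor-enriched hepatocyte cluster of its single-cell data. In these bulk libraries Epcam, also on the cholangiocyte list, was near 0 in tumors 2 and 3, unlike in that cluster. Fabp5 is also on the list of liver cancer genes. These sums are thus not separate measures of cell types.

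Endothelial genes lay on both sides of liver. The 19 markers summed to 599, 606 and 578 CPM in tumors and 584 to 635 CPM in N-LKO livers, and 0 were called with all tumors, and without tumor 1, 4 were called higher and 8 lower (6.40% and 5.59% of all genes). The higher ones were the general vascular genes Cd34 (9.15, 23.1 and 20 CPM against 4.18 to 6.36 CPM), Pecam1 (41.5, 79.1 and 66.6 CPM against 22.9 to 36.3 CPM), Cdh5 and Plvap. Among the lower ones, the sinusoidal lectin Clec4g had 21.3, 5.16 and 9.28 CPM against 24.2 to 32.3 CPM, and Dnase1l3 had 36.2, 13.1 and 20.5 CPM against 42.1 to 51.9 CPM. The ligands that the endothelium presents to pericentral hepatocytes were also in this group: Wnt2 had 2.56, 0.222 and 0.678 CPM against 3.35 to 5.08 CPM, and Rspo3 had 7.08, 2.27 and 2.82 CPM against 7.86 to 12.8 CPM. Bmp2, the endothelial signal that sets hepcidin, had 13.1, 6.23 and 5.58 CPM against 16.5 to 20.1 CPM (adjusted p = 0.102; without tumor 1, 0.00149). In hepatocyte genes of the same pathway, Atoh8 had 8.14, 2.00 and 3.55 CPM against 12.4 to 15.1 CPM, and hepcidin itself (Hamp) had 64.1, 8.18 and 0.730 CPM against 33.4 to 76.3 CPM. Of 19 genes of the BMP pathway and iron, 0 were called, 8 were lower and 1 higher in every tumor (11.6% and 11.5% of all genes), and without tumor 1 5 were called lower and 1 higher (5.59% and 6.40%).

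Lipid genes lay on both sides of liver. Of 26 genes of lipid uptake, binding and droplets, Fabp5 was called higher, 11 were lower and 5 higher in every tumor (11.6% and 11.5% of all genes), and the median log2 fold change was -0.32. Without tumor 1, 3 were called higher and 3 lower (6.40% and 5.59%). The lowest p among the members below liver was that of Cidec, a lipid droplet protein, with 83.6, 60.3 and 51.3 CPM against 125, 174 and 136 CPM (-1.16 ± 0.22, adjusted p = 0.0587). Fabp4, the fatty acid binding protein of adipocytes and vessels, had 54.9, 452 and 520 CPM against 37.7 to 60.8 CPM, inside the range of the livers in tumor 1 and far above it in the others. Of 20 genes of fatty acid synthesis 0 were called, and without tumor 1 5 were called higher and 3 lower (6.40% and 5.59% of all genes). Fasn, the fatty acid synthase, had 328, 308 and 819 CPM against 109 to 210 CPM, and Acly had 100, 143 and 170 CPM against 66.6 to 79.5 CPM. In the same pathway Scd1, which desaturates fatty acids, had 17791, 5452 and 7042 CPM against 18575 to 22500 CPM, and Elovl3 had 14.8, 1.87 and 5.32 CPM against 23.4 to 87.0 CPM. Dgat1 and Dgat2, the last enzymes of triglyceride synthesis, did not pass the test (adjusted p of 0.407 and 0.986), and without tumor 1 Dgat1 passed it (log2 fold change 0.74, adjusted p = 0.0243). Dgat2 had 238, 270 and 316 CPM against 243 to 322 CPM.

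In the NRF2 and antioxidant list of 34 genes, Gpx2 was called higher (0.437% of all genes), 9 were higher and 1 lower in every tumor (11.5% and 11.6%), and the median log2 fold change was 0.10. Without tumor 1, 4 were called higher and 0 lower (6.40% and 5.59%). Nqo1, a quinone reductase, had 30.4, 40.7 and 18 CPM against 8.19 to 9.54 CPM (1.77 ± 0.37, adjusted p = 0.0743), and the cystine transporter Slc7a11 had 44.5 CPM in tumor 1 and 5.07 CPM in tumor 3 against 1.39 to 2.55 CPM, with its highest level in tumor 2 (adjusted p = 0.0614). Both were outside the range of the livers in every tumor. Of 33 genes of glycolysis and gluconeogenesis, 0 were called and, without tumor 1, 6 were called higher (6.40% of all genes) and 0 lower, with Pfkp at 9.10, 24.3 and 33.8 CPM against 5.89 to 10.1 CPM. Of 27 ER stress genes, 0 were called (without tumor 1, 1 higher and 0 lower, against 6.40% and 5.59% of all genes). The chaperone Hspa5 had 1285, 1275 and 468 CPM against 662 to 1288 CPM. The 20 hepatocyte transcription factors gave 0 calls (without tumor 1, 2 higher and 2 lower, against 6.40% and 5.59% of all genes). In every tumor 5 of them were lower and 1 higher than in every N-LKO liver (11.6% and 11.5% of all genes). Hnf4a was at 524, 497 and 570 CPM against 551 to 629 CPM.

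The tumors differed from each other far more than the livers did. Of 6454 genes with at least 20 CPM in the highest tumor, 190 differed at least 4-fold between the highest and the lowest tumor (0.5 CPM added), while of 6041 genes with at least 20 CPM in the highest N-LKO liver, 20 did so among livers. Of the 190, the highest was tumor 1 in 79, tumor 2 in 83 and tumor 3 in 28, and the lowest was tumor 1 in 71, tumor 2 in 77 and tumor 3 in 42. The 15 genes with the largest ratio among tumors and a ratio under 2 among livers were chosen by these values and are described without a test. In 9 of them tumor 2 was the highest and in 5 the lowest, and 12 of the 15 stayed with 1 CPM added.

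Genes high in tumor 2 came from several tissues. Vil1, the villin of gut microvilli, had 0.553, 173 and 2.03 CPM in tumors 1, 2 and 3 and 0.190 to 0.489 CPM in livers. Ttn, the titin of muscle, had 8.60, 398 and 8.50 CPM against 4.47 to 7.93 CPM, and Anxa13, an annexin of gut epithelium, had 1.26, 126 and 25.5 CPM against 0.587 to 1.19 CPM. Cyp2a4, a steroid-hydroxylating cytochrome P450, had 45.1, 955 and 10 CPM against 5.26 to 10.2 CPM, and its reads are shared with a near-identical gene. Asns, the asparagine synthetase of the amino acid response, had 4.68, 27.7 and 0.104 CPM against 1.04 to 1.33 CPM, above the livers in tumors 1 and 2 and below them in tumor 3. Parm1 (1.26, 67.4 and 7.14 CPM), Scube3 (2.11, 68.2 and 11.6 CPM) and Fbxl16 (0.352, 33.8 and 17.9 CPM) were highest in tumor 2 and next highest in tumor 3. Genes lowest in tumor 2 included Mup3, a major urinary protein (600, 16.2 and 219 CPM against 654 to 1252 CPM), the short-chain acyl-CoA synthetase Acss3 (45.6, 0.889 and 15.4 CPM against 52.8 to 66.0 CPM), the neurotrophin receptor Ntrk2 (31.0, 0.489 and 13.9 CPM against 33.2 to 54.7 CPM) and Rgn, regucalcin (420, 12.9 and 39.7 CPM against 489 to 555 CPM). For these, tumor 1 lay nearest to the livers and tumor 3 in between.

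**Figure D4:**
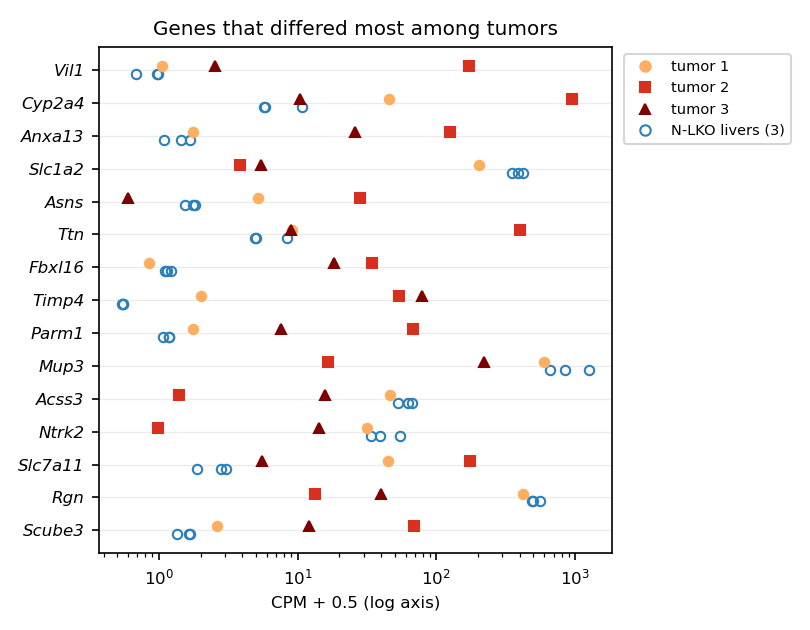
CPM + 0.5 on a log axis for the 15 genes with the largest ratio among tumors, with filled symbols for the 3 tumors and open circles for the 3 N-LKO livers. The livers cluster within a factor of 2 for each gene while the tumors spread over a factor of 26.3 or more, and tumor 2 is most often the outermost.

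Levels in tumors 2 and 3 also shifted by chromosome. For each library, the median log2 ratio to the mean of the N-LKO livers was taken over the genes of a chromosome with a mean of at least 5 CPM (10723 genes, 0.5 CPM added), a summary chosen after values had been seen and given with no test. Over the autosomes and X, each N-LKO liver against the other 2 stayed within -0.038 to 0.034. The WT livers, set against the mean of the N-LKO livers, ran more widely, from -0.049 to 0.175. Tumor 1 ran from -0.167 to 0.175, and 0 of 20 chromosomes lay beyond 0.3 from 0. In tumor 2, 5 did: chromosome 8 (-0.444), 9 (-0.449), 12 (-0.456), 13 (-0.448) and 14 (-0.447), a nearly equal step. In tumor 3, 4 did: chromosome 8 (-0.325), 13 (-0.532), 19 (-0.383) and X (-0.547). Both tumors were above liver by at least 0.187 on chromosomes 1, 7, 15, 17 and 18, with up to 0.276 in tumor 2 and 0.242 in tumor 3. On the same chromosomes WT liver 2 stood at 0.017, 0.162, 0.175, 0.157 and 0.077, so part of these smaller shifts is near the spread of non-tumor liver. Over all genes the medians were -0.02, 0.001 and 0.007 in tumors 1, 2 and 3. DNA copy number was not measured in these samples.

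The shift held along the chromosomes and across most of their genes. In tumor 2, each chromosome was cut into 4 stretches with near-equal numbers of genes, and their medians on chromosome 13 ran from -0.536 to -0.389 and on chromosome 14 from -0.473 to -0.386. In tumor 3, the stretches of X ran from -0.581 to -0.503 and those of chromosome 13 from -0.581 to -0.497, while those of chromosome 8 were uneven, from -0.405 to -0.117. The share of genes below every N-LKO liver was 75.1% on chromosome 13 and 75.1% on chromosome 14 in tumor 2, against 39.7% over all genes, and 79.2% on X and 76.6% on chromosome 13 in tumor 3, against 37.8%. Genes of the Y chromosome were also lower: Kdm5d had 30.1, 15 and 18.2 CPM in tumors 1, 2 and 3 against 28.8 to 31.3 CPM in N-LKO livers, and Uty had 33.3, 21.8 and 25.3 CPM against 34.7 to 38.3 CPM. Tumor 1 lay at or near the livers for both.

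**Figure D5:**
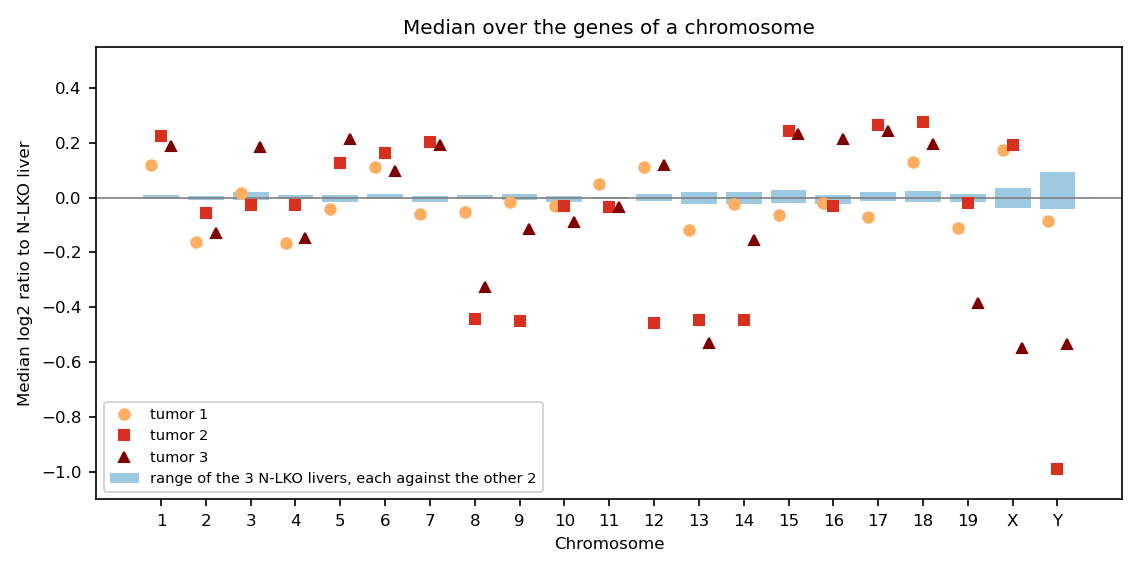
Median log2 ratio to N-LKO liver (vertical axis) over the genes of each chromosome (horizontal axis), with 1 symbol per tumor. Bars span the 3 N-LKO livers, each against the other 2. Tumor 2 lies near -0.45 on chromosomes 8, 9, 12, 13 and 14, tumor 3 lies low on 8, 13, 19 and X, and tumor 1 stays within -0.167 to 0.175 on the autosomes and X.

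The 7 chromosomes with a median under -0.3 in tumor 2 or 3 (8, 9, 12, 13, 14, 19 and X) held 28.4% of genes tested and 6 of the 10 called falls that have a position: Jund, Zfp423 and Nkd1 on chromosome 8, Vipr1 on 9, Dsp on 13 and Cdc42bpg on 19. They held 16 of the 78 rises (20.5%). Without tumor 1, they held 561 of 1002 falls (56.0%) and 174 of 1154 rises (15.1%), and these shares follow in part from how the chromosomes were picked. The pericentral genes were mostly elsewhere: 5 of the 24 lay on these chromosomes, and of the other 19, 15 were called lower without tumor 1, with a median log2 fold change of -2.59.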

How the data were processed

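RNA was extracted by the authors from mouse liver and tumor (Qiagen kit), ribosomal RNA was removed (Ribo-Zero) and libraries were sequenced on an Illumina HiSeq instrument. The submitters' processing notes name STAR, Partek and mm9, while the study's methods name TopHat2, and gene positions in the table match GRCm38 (GENCODE M21; 23360 of 24233 genes). The values the authors deposited are estimated counts per gene (expectation-maximization in Partek), neither scaled nor pooled; 66.6% were whole within 1e-6, and shared reads make near-identical, overlapping and antisense genes uncertain. The strand setting and annotation release are not given in the sources used here.

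Counts were rounded and tested in edgeR 4.0.16 (R 4.3.3; TMM, filterByExpr, quasi-likelihood F test, Benjamini-Hochberg adjusted p under 0.05), with the 9 WD libraries in 1 fit and tumor minus N-LKO liver as the contrast. Adjusted p values in the text are from this test. CPM uses TMM-scaled library sizes, is not per length and compares a gene between libraries, not genes with each other. The value after ± on a log2 fold change is its SE, approximated as its size over the square root of F. Where no library of a group exceeds 3 counts, the gene is treated as at the floor in that group, and a bound against it covers counting error only. Such a bound uses the mean of the tumors, not the lowest tumor. Named were, among called genes whose groups do not overlap and whose mean reaches 5 CPM, the 15 largest rises, all falls (up to 11) and the 5 steadiest rises, passing over automatic names; the 15 most variable genes among tumors; called members, or the 3 of lowest p, of a list; Nus1 and Dhdds; and members of a list under discussion. The 44 gene lists, the members and the tests were chosen with earlier results of these data known. Chromosome medians were added after values had been seen. On simulated counts (17552 genes) with the same spread in all groups, 97% of 4-fold and 60% of 2-fold changes were called, and so were 12 unchanged genes. In the real data the biological coefficient of variation was 0.331 among tumors and 0.152 among N-LKO livers. The simulated shares therefore do not give the power for genes that vary among tumors. Replicates of a group differed by more than sampling noise (chi-square per degree of freedom 9.45 to 103.6). Alternatives used DESeq2 1.42.0, limma 3.58.1, other scalings and filters, fewer libraries and a replicate block. Age, batch and sequencing date were not analysed here.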

Additional observations from a re-analysis of the deposited data

How the results depend on the processing

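The number of genes called, 89, was 1021 by the DESeq2 Wald test, 18 by limma-voom, 58 with a filter at a mean of 1 CPM and 29 in the fit of the 6 tumor and N-LKO libraries alone. With DESeq2 size factors, upper-quartile scaling or no filter it stayed within 1.5 times, at 90, 83 and 89. Leaving out 1 library gave 3 to 2193 calls, the lowest without N-LKO liver 2 and the highest without tumor 1. With the replicate number of the sample titles as a block, 36 genes were called, 32 of them among the 89, and 0 were lower. The deposited column names number the libraries otherwise, so this block may not join the right libraries. The correlation of deviations between tumor and N-LKO liver of the same title number was 0.101, 0.059 and -0.011. Tumor 1 correlated best with liver 1, tumor 2 with liver 3 and tumor 3 with liver 1. By the column names, tumor 1 and liver 1 share a number, as do tumor 2 and liver 3. No N-LKO liver has the number of tumor 3. Such small correlations of deviations from the mean of 3 libraries cannot tell whether a tumor and a liver came from 1 animal. For the 44 called genes named in the text, 412 of 745 values under these alternatives kept the call, 333 lost it and 0 changed direction; of the 81 named genes not called, 61 passed without tumor 1. Of the 89 genes, 88 were among the DESeq2 calls and 17 among those of limma-voom.
The chromosome medians moved by at most 0.083 with a filter at 20 CPM or upper-quartile scaling. Among tumors, the list of variable genes kept 12 of 15 with 1 CPM added. At this depth, genes whose N-LKO livers hold 3 counts or fewer have a bound instead of a fold. The tumor group rests on 3 libraries of which 1 lies near liver, so a gene that did not pass may still differ.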

Other observations

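Several called rises, chosen here after their values were seen, belong to groups not described above. Genes of axonemes and of nerve cells were among them: besides Dnah1, the axonemal genes Dnah7b (6.26, 5.07 and 11.1 CPM in tumors 1, 2 and 3 against 1.75 to 2.33 CPM in N-LKO livers) and Drc1, the synaptic genes Syn2 (2.87, 2.80 and 2.45 CPM against 0.147 to 0.372 CPM) and Syt14, and the channel genes Cacna1b and Scn2a. Enzymes and transporters included Hsd11b1, which regenerates active glucocorticoid (245, 425 and 385 CPM against 110 to 113 CPM; log2 fold change 1.65, adjusted p = 0.0151), the zinc importer Slc39a4 (54.6, 226 and 134 CPM against 18.7 to 24.2 CPM) and the aldose reductase relative Akr1b7 (12.6, 3.47 and 9.12 CPM against 0.332 to 0.638 CPM). Mfge8, a secreted protein that binds dying cells, had 49.9, 380 and 227 CPM against 16.4 to 23.0 CPM. The Wnt ligand Wnt16 had 0.955, 1.60 and 2.14 CPM in tumors, with every N-LKO liver at or under 3 counts.

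Antigen presentation genes stood higher in tumors 2 and 3. Of 16 tested, 0 were called by edgeR with all tumors (the lowest adjusted p, 0.0908, was that of the immunoproteasome subunit Psmb8), and 5 were called higher and 1 lower without tumor 1 (6.40% and 5.59% of all genes). Psmb8 had 22.8, 83.2 and 69.9 CPM in tumors and 19.8 to 21.6 CPM in N-LKO livers, and the peptide transporter subunit Tap2 had 17.2, 40.9 and 37.4 CPM against 14.7 to 22 CPM. Of the 16 genes, 12 lie on chromosome 17, whose median log2 ratio was 0.267 in tumor 2 and 0.242 in tumor 3. Hemoglobin transcripts and the other erythroid markers summed to 496, 645 and 622 CPM in tumors and 298 to 460 CPM in N-LKO livers.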
